A study of Mus musculus with 6 samples.

Results

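The aminoacyl-tRNA synthetases are the enzymes that join each amino acid to its tRNA. Members were taken by gene symbol, under a rule with no threshold on a measured value: 36 synthetase genes among the 24028 genes of the count table, 20 for the cytosolic enzymes and 16 for the mitochondrial ones. All 36 had enough counts to be tested, and the lowest count of a member in a library was 59.

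Charging takes place in the cytosol and, with a separate set of nuclear-encoded enzymes, in mitochondria. Gars and Kars are exceptions, since a single gene supplies the glycyl or lysyl enzyme of both compartments, and Eprs encodes a bifunctional enzyme for glutamate and proline. Several cytosolic enzymes sit in a multisynthetase complex built on scaffold proteins. Transcription of many cytosolic synthetase genes is known to be raised by ATF4, the transcription factor of the integrated stress response, through a composite element of CEBP and ATF half-sites (CARE).

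The RNA came from C2C12 cells, an immortalised mouse myoblast line, as a single clone (MMH6) kept under puromycin. Every culture of the clone carried MMH, a codon-altered, doxycycline-inducible chimera of the mouse Dux homeodomain part and the carboxy-terminal part of human DUX4. Induced cells (3 cultures) received 2 µg/ml doxycycline, and uninduced cells (3 cultures) received none. The series text gives 18 h and the sample protocol 36 h for the treatment, so the duration is uncertain. Cultures with doxycycline and without MMH were not analysed here, and drug and transgene cannot be told apart.

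The induced libraries held 23.5 ± 1.72 M counts and the uninduced libraries 22.6 ± 1.17 M counts (SD, n = 3 each). In induced libraries 42.8% ± 0.291 of reads fell on the 20 genes most abundant there, against 2.96% ± 0.0132 in uninduced libraries (SD over 3 libraries). Directions below therefore depend on how libraries are scaled, and a rise or fall is relative to the bulk of tested genes (TMM scaling), whose median log2 fold change was -0.011. Scaled by library size alone, that median was -0.97. The labels name no spike-in. All 5 myoblast markers were detected, with a summed level of 821 to 856 CPM in induced and 1624 to 1632 CPM in uninduced libraries. Summed markers lay at 1.04 to 1.37 and 0.718 to 1.26 CPM for leukocytes, 0.684 to 0.976 and 0.0647 to 0.164 CPM for endothelium, and 0 to 0.0647 and 0 to 0.0656 CPM for epithelium (induced and uninduced libraries, 2 markers each). Summed adipocyte markers lay at 6.77 to 7.96 CPM in induced and 0.389 to 0.582 CPM in uninduced libraries, and neuronal ones, almost all of them Tubb3, at 96.0 to 104 CPM in induced and 56.5 to 61.3 CPM in uninduced libraries. The part of these changes in the synthetase results was not tested. In bulk RNA, fewer cells of a type and less RNA per cell cannot be told apart.

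The promoters of cytosolic members that hold a match to CARE, the element named above, are printed here. All 5 genes were higher in induced cells (4 of them lower by library size alone). Whether ATF4 acts on them through these matches was not tested. RefSeq windows of GRCm38.p6, running from 250 bases before to 50 after a transcription start, were found for 27 of the 36 members (28 windows). They were searched on both strands for TGATGNAAN, and matches could overlap. Windows with a match came from Aars, Gars, Iars, Tars and Yars, which are 5 of 13 cytosolic windows, against 0 of 15 mitochondrial windows and 3.95% of all 32851 windows of this length. Among cytosolic members with a window but no match, Kars, Mars, Sars, Qars and Farsa were also higher. Their log2 fold changes were 0.83, 0.43, 0.40, 0.23 and 0.12, in the same order. Dars, Eprs and Farsb, also without a match, were lower. Of all 20 cytosolic members, some of which had no window to search, 15 were higher. Whether a match goes with the direction of change was not tested. The window begins before the annotated gene for Gars, Iars and Tars, and belongs to a start inside the annotated gene for Aars and Yars. Sequences run 5′ to 3′ on the gene's strand, and capitals mark the match.
Aars, chr8:111033592-111033891, strand +: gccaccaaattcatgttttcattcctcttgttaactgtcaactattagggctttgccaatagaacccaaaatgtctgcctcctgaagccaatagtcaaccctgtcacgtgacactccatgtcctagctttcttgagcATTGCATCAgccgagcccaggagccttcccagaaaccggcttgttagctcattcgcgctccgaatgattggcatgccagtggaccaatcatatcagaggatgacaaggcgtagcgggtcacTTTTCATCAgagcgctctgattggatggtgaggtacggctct
Tars, chr15:11399609-11399908, strand -: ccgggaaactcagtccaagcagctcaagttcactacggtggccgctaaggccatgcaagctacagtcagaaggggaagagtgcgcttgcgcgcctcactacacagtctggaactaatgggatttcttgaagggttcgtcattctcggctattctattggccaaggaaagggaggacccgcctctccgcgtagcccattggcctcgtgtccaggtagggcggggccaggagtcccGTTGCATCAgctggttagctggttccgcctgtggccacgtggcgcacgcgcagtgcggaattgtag
Iars, chr13:49681880-49682179, strand +: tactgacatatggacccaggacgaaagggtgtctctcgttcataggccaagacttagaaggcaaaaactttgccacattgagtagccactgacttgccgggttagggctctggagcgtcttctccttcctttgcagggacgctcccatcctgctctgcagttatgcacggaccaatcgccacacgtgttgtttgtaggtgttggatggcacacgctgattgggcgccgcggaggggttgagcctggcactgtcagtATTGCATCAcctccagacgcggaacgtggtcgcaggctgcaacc
Gars, chr6:55037751-55038050, strand +: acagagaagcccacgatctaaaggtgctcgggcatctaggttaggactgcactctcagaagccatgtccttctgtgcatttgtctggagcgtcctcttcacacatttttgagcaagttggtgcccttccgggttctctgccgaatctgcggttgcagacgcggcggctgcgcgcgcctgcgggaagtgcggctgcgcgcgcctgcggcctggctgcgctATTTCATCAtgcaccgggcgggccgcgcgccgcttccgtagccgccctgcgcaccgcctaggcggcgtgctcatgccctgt
Yars, chr4:129189653-129189952, strand +: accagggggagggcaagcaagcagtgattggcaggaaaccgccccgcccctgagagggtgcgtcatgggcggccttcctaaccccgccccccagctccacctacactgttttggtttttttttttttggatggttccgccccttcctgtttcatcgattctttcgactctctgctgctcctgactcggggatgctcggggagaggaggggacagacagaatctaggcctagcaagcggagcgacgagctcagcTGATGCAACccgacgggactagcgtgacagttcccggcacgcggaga

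The Aars window held 2 matches, whose first letters lay 113 bases before and 8 bases after the start base. The match began 16 bases before the start base in Tars and 31 before it in Gars, and 6 bases after it in Iars and 3 after it in Yars. ATTGCATCA occurred in both Aars and Iars. A Dux homeodomain-type motif, also searched for, was in 0 of the 28 member windows and in 0.116% of all windows. A match is a description of these letters, and binding was not measured here.

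Relative to the bulk of genes, more cytosolic synthetase transcripts were higher than lower in induced cells, and more mitochondrial ones were lower than higher. Of 20 cytosolic members, 15 were higher, 4 lower and 1 not called by edgeR's quasi-likelihood test at a Benjamini-Hochberg adjusted p of 0.05 over all tested genes. Of 16 mitochondrial members, 4 were higher, 10 lower and 2 not called. Among all 12969 genes tested, 82.5% were called, 41.3% higher and 41.2% lower. The induced and uninduced CPM did not overlap in 13 higher and 4 lower cytosolic members and in 4 higher and 11 lower mitochondrial members, against 41.5% higher and 41.7% lower of all tested genes. The median log2 fold change, induced over uninduced, was 0.24 over the cytosolic members and -0.28 over the mitochondrial members, a difference of 0.51 that ranged from 0.48 to 0.58 over every scaling, test and left-out library tried. Scaling shifts both medians alike, so the scalings tried could hardly have moved this difference. The split of higher and lower calls moved with scaling. By library size alone, 2 cytosolic members were higher and 18 lower, and 1 mitochondrial member was higher and 15 lower, against 15.2% higher and 76.7% lower among all genes. With upper-quartile scaling the cytosolic count was 10 higher and 4 lower, and the mitochondrial one 4 higher and 12 lower, against 35.4% higher and 47.7% lower among all genes. When library size was taken without the 20 most abundant induced genes, a choice made after seeing the data, the cytosolic count was 8 higher and 5 lower and the mitochondrial one 4 higher and 12 lower, against 34.1% higher and 49.9% lower among all genes.

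**Figure D1:**
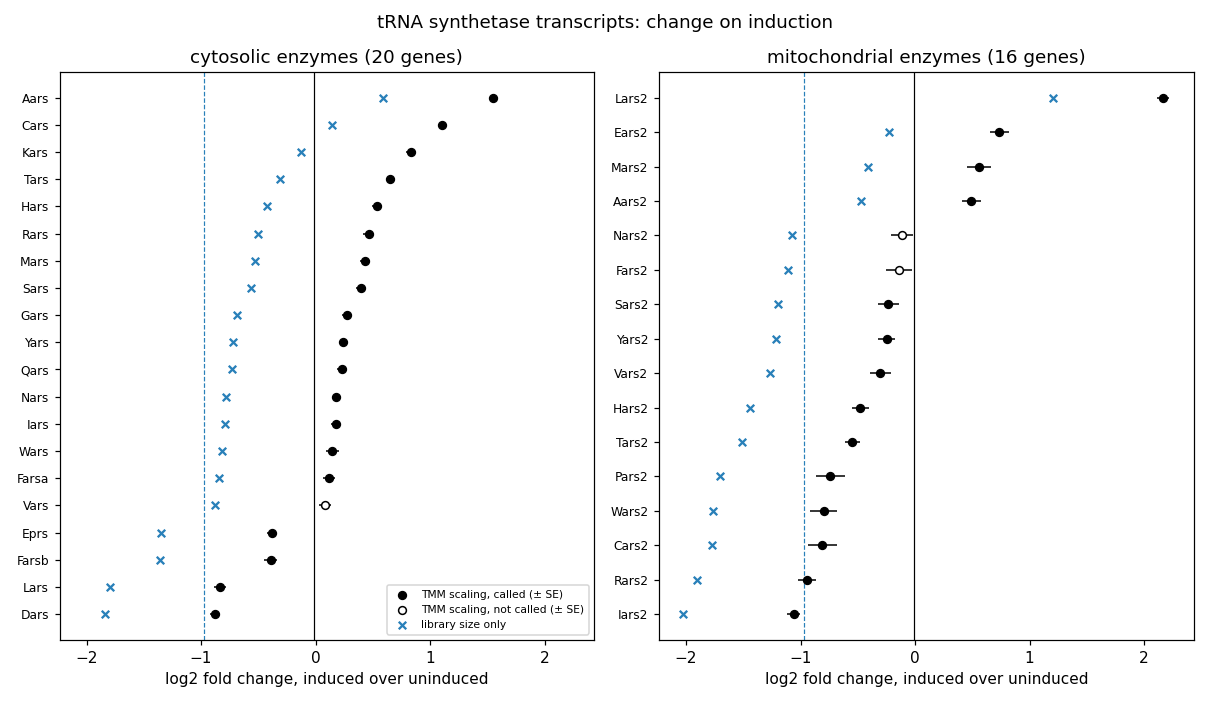
Log2 fold change, induced over uninduced, of each cytosolic (left) and mitochondrial (right) synthetase gene, with its standard error, by edgeR on 3 libraries per group. Circles are TMM-scaled values (open where not called), crosses the values scaled by library size alone, and the solid and dashed lines the median of all tested genes under each. Cytosolic genes run from -0.88 for Dars to 1.55 for Aars, and mitochondrial ones from -1.06 for Iars2 to 2.17 for Lars2.

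Among the cytosolic enzymes, Aars (GRCm38 chr8:111027778-111055569, plus strand), which charges tRNA with alanine, showed the largest rise. Aars had 695, 655 and 652 CPM in induced libraries, against 233, 229 and 220.0 CPM in uninduced libraries. The groups were far apart, and the log2 fold change was 1.55 ± 0.04 (SE; adjusted p by edgeR 1.66e-20), or 2.93-fold. Cars, the cysteinyl enzyme, had 181, 179 and 174 CPM in induced libraries and 84.3, 80.7 and 82.7 CPM in uninduced libraries, a log2 fold change of 1.11 ± 0.04 (SE) with an edgeR adjusted p of 1.67e-17. Aars and Cars were the 2 cytosolic members that stayed higher by library size alone, at 0.59 and 0.14 on the log2 scale (edgeR adjusted p = 1.02e-12 for Aars and 0.00269 for Cars).

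Kars, the lysyl enzyme of both compartments, came next. Its level was 225, 209 and 221 CPM in induced libraries, against 118, 122 and 128 CPM in uninduced libraries, a log2 fold change of 0.83 ± 0.04 (SE). Tars, the threonyl enzyme, had 292, 288 and 297 CPM in induced libraries and 187, 182 and 188 CPM in uninduced libraries, a log2 fold change of 0.65 ± 0.04 (SE). Hars, the histidyl enzyme, had 116, 113 and 110 CPM in induced libraries and 79.9, 77.8 and 76.1 CPM in uninduced libraries, a log2 fold change of 0.54 ± 0.04 (SE). In these 3 genes no induced library reached down to an uninduced one, but with library size alone the values were -0.13, -0.31 and -0.43 on the log2 scale, in the same order of genes. The other 10 that rose ran from 0.12 for Farsa to 0.47 for Rars on the log2 scale, and these too were below 0 with library size alone. Farsa and Wars overlapped between groups, and DESeq2 called neither (adjusted p = 0.139 for Farsa and 0.095 for Wars).

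The 4 cytosolic members that fell did so under each of the 5 scalings tried. Dars, the aspartyl enzyme, had 62.7, 61.9 and 61.0 CPM in induced libraries, against 119, 109 and 113 CPM in uninduced libraries, a log2 fold change of -0.88 ± 0.05 (SE; adjusted p by edgeR 1.77e-14). Lars, the leucyl enzyme, which in human cells also serves as a leucine sensor for mTORC1, had 64.1, 62.2 and 67.0 CPM in induced libraries and 115, 109 and 121 CPM in uninduced libraries, a log2 fold change of -0.84 ± 0.05 (SE). For each of these genes the highest induced library lay well below the lowest uninduced one. Farsb, the beta subunit of the phenylalanyl enzyme, had 39.8, 43.4 and 40.0 CPM in induced libraries and 51.3, 54.6 and 55.5 CPM in uninduced libraries, a log2 fold change of -0.39 ± 0.06 (SE). Its partner Farsa, the alpha subunit, had 61.2, 56.4 and 61.1 CPM in induced libraries and 51.9, 56.6 and 56.0 CPM in uninduced libraries. The subunits of this enzyme thus had values of opposite sign, -0.39 for Farsb and 0.12 for Farsa, though Farsa was at -0.025 with upper-quartile scaling. Eprs had 141, 145 and 142 CPM in induced libraries and 190, 185 and 183 CPM in uninduced libraries, a log2 fold change of -0.38 ± 0.04 (SE). Vars, the valyl enzyme, was not called, with 215, 182 and 205 CPM in induced libraries and 189, 188 and 191 CPM in uninduced libraries (log2 fold change 0.08 ± 0.05, SE). Its induced libraries lay on either side of the uninduced ones, and it was called higher without induced replicate 2 (0.15, edgeR adjusted p = 0.00426).

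**Figure D2:**
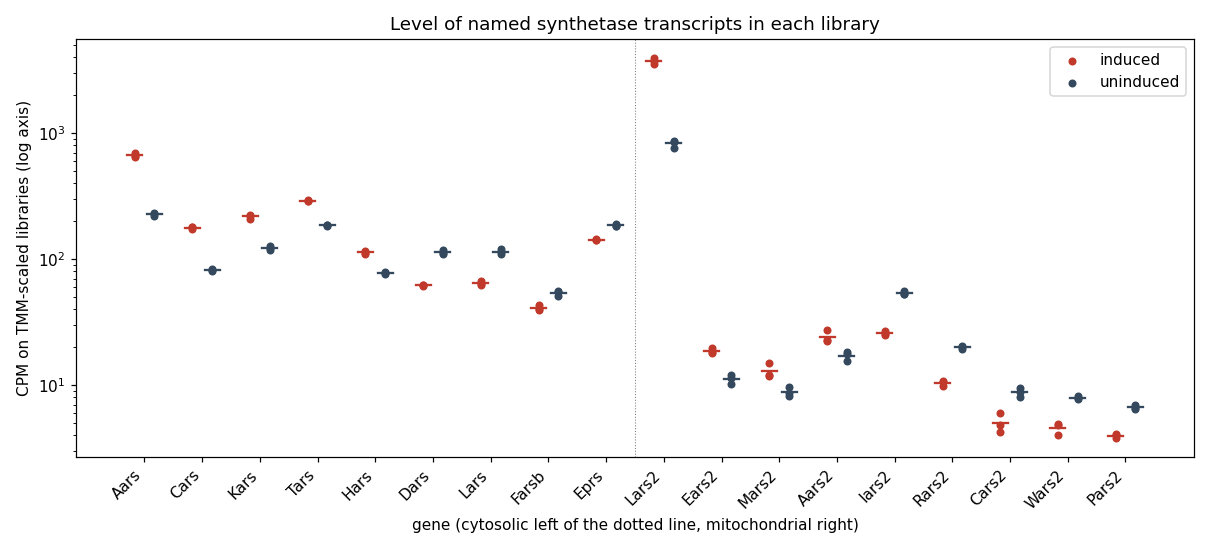
Level in CPM (log axis) of 9 cytosolic and 9 mitochondrial synthetase transcripts in each library, induced left of uninduced, with points for the 3 libraries of a group and bars for their mean. Lars2 stands above all others in both groups, at 3748 CPM on average in induced and 834 CPM in uninduced cells, and Iars2 and Rars2 show the largest falls.

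Most mitochondrial enzymes moved down. Iars2 (chr1:185286642-185329419, minus strand), the isoleucyl enzyme of mitochondria, had 25.2, 25.4 and 26.9 CPM in induced libraries, against 53.0, 52.9 and 55.5 CPM in uninduced libraries. Its log2 fold change was -1.06 ± 0.06 (SE; adjusted p by edgeR 1.89e-14). Rars2, the arginyl enzyme, had 9.92, 10.5 and 10.8 CPM in induced libraries and 20.5, 19.4 and 20.2 CPM in uninduced libraries, a log2 fold change of -0.94 ± 0.08 (SE). In both genes the induced level was near 50% of the uninduced one, with folds of 0.480 for Iars2 and 0.521 for Rars2. Cars2, the cysteinyl enzyme, had 4.84, 4.21 and 5.97 CPM in induced libraries and 8.86, 9.54 and 8.03 CPM in uninduced libraries, a log2 fold change of -0.81 ± 0.13 (SE). Wars2, the tryptophanyl enzyme, had 4.90, 4.79 and 4.02 CPM in induced libraries and 7.90, 7.70 and 8.23 CPM in uninduced libraries, a log2 fold change of -0.80 ± 0.12 (SE). Pars2, the prolyl enzyme, had 4.10, 3.82 and 4.02 CPM in induced libraries and 6.41, 6.63 and 6.95 CPM in uninduced libraries, a log2 fold change of -0.74 ± 0.13 (SE). All 5 were without overlap between groups and kept their calls under every alternative tried. Tars2, Hars2, Vars2, Yars2 and Sars2 fell by 0.55, 0.48, 0.30, 0.25 and 0.23 on the log2 scale, but DESeq2 did not call Sars2 (adjusted p = 0.104) and edgeR did not call Vars2 without induced replicate 3 (-0.23, adjusted p = 0.0525). The Sars2 call was also lost without induced replicate 1 (adjusted p = 0.0567), without induced replicate 2 (adjusted p = 0.0856) and without uninduced replicate 3 (adjusted p = 0.0732), all by edgeR.

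Fars2, the phenylalanyl enzyme, and Nars2, the asparaginyl enzyme, were not called. Fars2 had 7.98, 6.60 and 6.66 CPM in induced libraries and 7.27, 7.70 and 8.56 CPM in uninduced libraries. Nars2 had 8.72, 8.15 and 8.84 CPM in induced libraries and 9.04, 9.48 and 9.34 CPM in uninduced libraries. The Fars2 groups overlapped and the Nars2 groups did not, with log2 fold changes of -0.14 ± 0.11 and -0.11 ± 0.10 (SE). Both were called lower with upper-quartile scaling (edgeR adjusted p = 0.0238 for Fars2 and 0.0196 for Nars2).

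Against this direction, 4 mitochondrial members rose. Ears2 charges mitochondrial tRNAs with glutamate, including the glutamine tRNA, on which it is later converted to glutamine. It had 19.8, 18.2 and 18.1 CPM in induced libraries, against 11.4, 10.3 and 11.9 CPM in uninduced libraries, a log2 fold change of 0.74 ± 0.08 (SE; adjusted p by edgeR 2.05e-08). Mars2, the methionyl enzyme, had 14.99, 11.7 and 12.1 CPM in induced libraries and 9.64, 8.64 and 8.16 CPM in uninduced libraries, a log2 fold change of 0.56 ± 0.10 (SE). Aars2, the alanyl enzyme, had 27.3, 22.8 and 22.4 CPM in induced libraries and 18.3, 17.5 and 15.7 CPM in uninduced libraries, a log2 fold change of 0.49 ± 0.08 (SE). The groups did not overlap for these 3 genes, but their values were -0.23, -0.41 and -0.47 by library size alone, in the same order.

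Lars2 (chr9:123366927-123462675, plus strand), the leucyl enzyme of mitochondria, stood apart from every other member. It had 3733, 3972 and 3538 CPM in induced libraries, against 768, 874 and 859 CPM in uninduced libraries, a log2 fold change of 2.17 ± 0.05 (SE; adjusted p by edgeR 3.69e-19). It was the 1 mitochondrial member that stayed higher by library size alone, at 1.20 on the log2 scale. Divided by the length of the longest coding transcript in GENCODE M21, its level was 962 CPM per kb in induced and 214 CPM per kb in uninduced cells. That was 105-fold the next mitochondrial member per kb in induced cells and 19.97-fold in uninduced cells. The Lars2 transcript shares 3 of its 3845 words of 50 bases with the non-coding transcript Gm15564 and none with other annotated transcripts. These words cover only that transcript, of 3894 bases, whereas all annotated Lars2 exons together hold 11089 bases. The search took exact matches to GENCODE M21 transcripts, so RNA absent from that annotation was not searched. Whether the counts at this row all come from Lars2 messenger RNA was not tested.

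Apart from Lars2, cytosolic transcripts were more abundant per length than mitochondrial ones. On the scale of CPM per kb, the cytosolic levels ran from 16.2 for Lars to 116 for Aars in induced cells, with a median of 48.9, and from 15.6 for Wars to 99.7 for Nars in uninduced cells, with a median of 38.5. The other 15 mitochondrial members ran from 1.04 for Wars2 to 9.13 for Ears2 in induced cells, with a median of 4.72, and from 0.780 for Mars2 to 10.7 for Rars2 in uninduced cells, with a median of 5.13. The ranges of these 2 sets did not meet in either group. Levels per length depend on the transcript chosen. The Mars2 transcript used has 11294 bases, whereas its RefSeq gene spans only chr1:55237177-55240058, so its place as the lowest rests on that choice. The Aars transcript used, of 5750 bases, includes the stretch shared with Exosc6, which bears on the Aars ranks. Per length, Aars had rank 2 of the 36 in induced cells, where it overlapped with Gars and Nars. It had rank 10 in uninduced cells, where it overlapped with Hars and Eprs. Cars had rank 9 in induced cells, overlapping with Hars, and rank 20 in uninduced cells, overlapping with Farsb. Dars had rank 18 in induced cells, overlapping with Eprs, and rank 5 in uninduced cells, overlapping with Kars. Ears2 led these 15 in induced cells with no overlap with the next, Aars2, whereas Rars2 led them in uninduced cells with no overlap with Iars2.

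A ratio of 2 genes within a library does not depend on how libraries are scaled. The cytosolic gene was therefore set over the mitochondrial gene for the 13 amino acids whose member symbols differ only by the final 2. Glutamate and proline (Eprs with Ears2 and Pars2) and phenylalanine (Farsa and Farsb with Fars2) were left out by this rule. Eprs had a log2 fold change of -0.38, against 0.74 for Ears2 and -0.74 for Pars2. Farsa was at 0.12, Farsb at -0.39 and Fars2 at -0.14. In 11 pairs the ratio was higher in every induced library than in any uninduced one, in 1 pair (Lars/Lars2) it was lower, and in 1 (Mars/Mars2) the groups overlapped. Among all tested genes taken singly, the groups did not overlap in 41.5% (higher) and 41.7% (lower). The share among ratios of other gene pairs was not computed, so the count of pairs has no background of its own. The exact two-sided permutation p was 0.1 for each of the 12 pairs without overlap, the smallest that 3 against 3 libraries allow, and 0.108 after adjustment over 13 pairs. The changes of the log2 ratio ran from -3.00 to 1.93 with a median of 0.94. The direction held in all 91 values recomputed with another prior count or a library left out. For the 12 pairs without overlap, leaving out a library could not have turned the direction, so these values add no support there.

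The pair for cysteine changed most among those that rose. The log2 ratio of Cars to Cars2 was 5.22, 5.404 and 4.86 in induced libraries, against 3.25, 3.08 and 3.36 in uninduced libraries, a change of 1.93 or 3.81-fold. For arginine, Rars had 132, 139 and 135 CPM in induced libraries and 99.4, 91.9 and 102 CPM in uninduced libraries, while Rars2 fell as given above. The log2 ratio of Rars to Rars2 was 3.73, 3.71 and 3.63 in induced libraries and 2.27, 2.24 and 2.34 in uninduced libraries, a change of 1.41. Iars/Iars2 changed by 1.24, Tars/Tars2 by 1.20, Aars/Aars2 by 1.06 and Hars/Hars2 by 1.01 on the log2 scale. For leucine the ratio went the other way, at -5.86, -6.00 and -5.72 in induced libraries and -2.74, -3.00 and -2.83 in uninduced libraries, a change of -3.00.

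The smallest changes were those for asparagine and methionine. Nars had 311, 307 and 313 CPM in induced libraries and 277, 269 and 274 CPM in uninduced libraries, and the log2 ratio of Nars to Nars2 was 5.15, 5.23 and 5.14 in induced libraries, against 4.94, 4.83 and 4.87 in uninduced libraries. Mars had 145, 133 and 145 CPM in induced libraries and 103, 105 and 105 CPM in uninduced libraries, and rose by much the same factor as Mars2, with log2 fold changes of 0.43 for Mars and 0.56 for Mars2. The log2 ratio of Mars to Mars2 was 3.27, 3.50 and 3.57 in induced libraries and 3.42, 3.60 and 3.68 in uninduced libraries (exact two-sided permutation p = 0.4), so the groups overlapped.

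**Figure D3:**
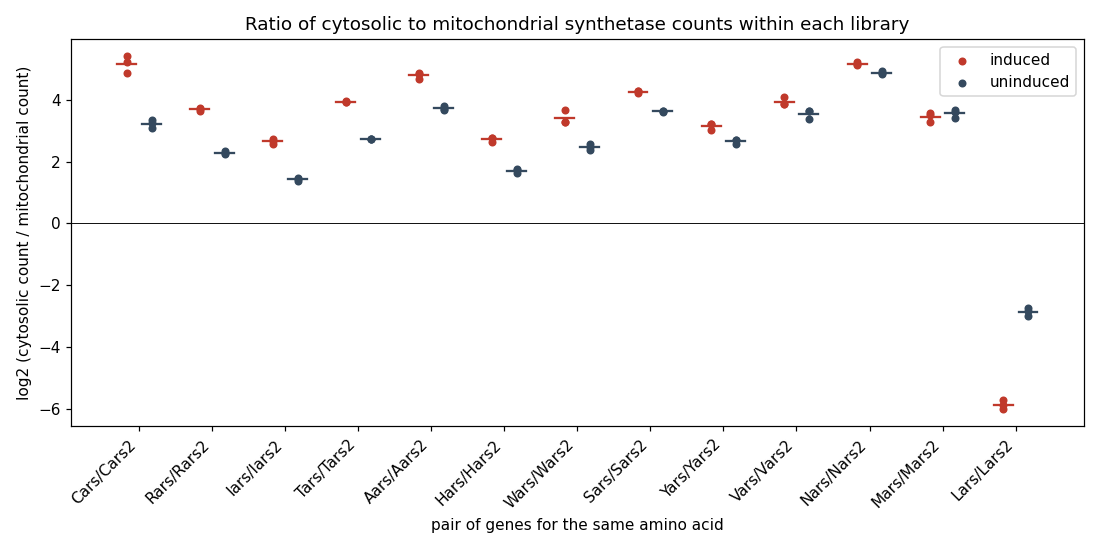
Log2 ratio of the counts of the cytosolic gene to those of the mitochondrial gene for the same amino acid, in each of 3 induced and 3 uninduced libraries, for 13 pairs ordered by change. Points are libraries and bars the group means. The induced points lie above the uninduced ones in 11 pairs, mix with them for Mars/Mars2 and lie below them for Lars/Lars2.

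Summed over members, the cytosolic transcripts made up 0.253% ± 0.00416 of all counts in induced cells and 0.368% ± 0.00294 in uninduced cells (SD, n = 3 each). On the TMM scale the same sum was 3530 ± 61.2 CPM in induced and 2639 ± 30.5 CPM in uninduced cells (SD, n = 3 each), so the direction of the sum turns with the scaling. The mitochondrial sum without Lars2 was lower on both scales, at 0.0140% ± 0.000592 of counts and 196 ± 8.15 CPM in induced cells, against 0.0348% ± 0.000461 and 249 ± 4.23 CPM in uninduced cells (SD, n = 3 each). The log2 ratio of these sums, cytosolic over mitochondrial without Lars2, was 4.17 ± 0.0374 in induced and 3.40 ± 0.00876 in uninduced libraries (SD, n = 3 each). With Lars2 in the mitochondrial sum it was -0.16 ± 0.0955 in induced and 1.29 ± 0.0821 in uninduced libraries, so the sign of the change rests on that gene.

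Some members share exonic sequence with a neighbour, and the counting of strand is not given in the sources used here. Iars2 shares 36.6% of its 50-base words with Rab3gap2 on the opposite strand, and Rab3gap2 was not called (log2 fold change 0.08, edgeR adjusted p = 0.0971). Aars shares 22.4% of its words with Exosc6 on the same strand, and Exosc6 fell by 0.83 on the log2 scale, with 8.82 CPM in induced and 15.7 CPM in uninduced cells on average. Cars2 shares 17.8% with Naxd, which rose by 0.17 on the log2 scale, with 19.8 CPM in induced and 17.6 CPM in uninduced cells, and Farsb shares 10.1% with Sgpp2, which had 4 to 5 counts per induced library and 4 to 8 per uninduced library. Hars and Hars2 overlap head to head over 195 exonic bases, and the end of Mars overlaps with Ddit3, a stress-response transcription factor gene, over 68. The part of these overlaps in the changes was not tested.

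By role, the enzymes of the multisynthetase complex were split. Of its 8 enzymes 5 were higher (Kars, Rars, Mars, Qars and Iars) and 3 lower (Dars, Lars and Eprs), with a median log2 fold change of 0.20, against 10 higher and 1 lower of 12 cytosolic enzymes outside it, with a median of 0.26. Over all tested genes 41.3% were higher and 41.2% lower, so the share of the complex that was lower, 37.5%, was near the background. With upper-quartile scaling the 8 split into 3 higher and 3 lower and the 12 into 7 higher and 1 lower. Among all tested genes 35.4% were higher and 47.7% lower at that setting. With library size alone all 8 enzymes of the complex were lower, as were 76.7% of all tested genes. Of its 3 scaffold genes, Aimp2 fell, with 19.98 ± 0.840 CPM in induced and 37.1 ± 1.82 CPM in uninduced cells (SD, n = 3 each; log2 fold change -0.89 ± 0.07, SE). Eef1e1 fell by 0.29 and Aimp1, at 0.10, was not called (edgeR adjusted p = 0.0929). By catalytic fold, 7 of 9 class I enzymes were higher and 1 lower (median 0.23), and 8 of 10 class II enzymes were higher and 2 lower (median 0.34). With upper-quartile scaling 4 class I and 6 class II enzymes were higher, against 35.4% of all tested genes.

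Of 12 synthetases reported as targets of ATF4, 10 were higher and 2, Lars and Eprs, lower, with a median log2 fold change of 0.26. Of the 8 other cytosolic members 5 were higher and 2 lower, with a median of 0.18. The share higher among all tested genes was 41.3%. With upper-quartile scaling 7 of the 12 and 3 of the 8 were higher, against 35.4% of all tested genes. Without the 20 most abundant induced genes in the library size, 5 of the 12 and 3 of the 8 were higher, against 34.1% of all genes. The 5 with a CARE match printed above had log2 fold changes of 1.55 (Aars), 0.65 (Tars), 0.27 (Gars), 0.24 (Yars) and 0.18 (Iars), of which Iars lost its call with upper-quartile scaling (0.031, edgeR adjusted p = 0.487). Without the 20 most abundant induced genes in the library size, Iars was at -0.024, Gars at 0.074 and Yars at 0.043, and edgeR called none of these 3 (adjusted p = 0.587 for Iars, 0.091 for Gars and 0.344 for Yars). Among 24 other genes of the ATF4 response 18 were higher and 4 lower, against 41.3% and 41.2% of all tested genes, with a median of 0.46. The stress-induced transcription factor gene Atf3 rose by 4.48 ± 0.07, Sesn2, which encodes a sensor that restrains mTORC1, by 3.01 ± 0.05 and the pseudokinase gene Trib3 by 1.34 ± 0.07 on the log2 scale (SE). The proline synthesis gene Pycr1 fell by 0.73, the secreted glycoprotein gene Stc2 by 0.59 and Nupr1 by 0.35. Atf4 itself had 495 ± 14.4 CPM in induced and 356 ± 14.0 CPM in uninduced cells (SD, n = 3 each), a log2 fold change of 0.47 ± 0.04 (SE). With upper-quartile scaling 15 of these 24 were higher and 6 lower, against 35.4% higher and 47.7% lower among all tested genes. With library size alone 4 were higher and 20 lower, against 15.2% higher and 76.7% lower among all tested genes.

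Of 12 genes that work beside the mitochondrial enzymes, 6 were lower, 2 higher and 4 not called, with a median log2 fold change of -0.09. Their share of lower genes, 50%, was near the 41.2% of all tested genes. The amidotransferase that turns glutamate into glutamine on the mitochondrial tRNA, downstream of Ears2, is made of the products of Qrsl1, Gatb and Gatc. Gatb had 2.77 ± 0.582 CPM in induced and 7.05 ± 0.659 CPM in uninduced cells (SD, n = 3 each; log2 fold change -1.35 ± 0.15, SE), and Gatc fell by 0.98, whereas Qrsl1 was at 0.18 (edgeR adjusted p = 0.0784). The elongation factor gene Tsfm fell by 0.74. Trnt1, which adds the CCA end to tRNAs of both compartments, rose by 0.68 and Mtrf1l, a mitochondrial release factor gene, by 0.46 on the log2 scale. Of the 5 cytosolic elongation factors 4 were higher, against 41.3% of all tested genes, with a median of 0.39, among them Eef1b2 by 0.72, Eef2 by 0.41 and Eef1a1 by 0.39. With upper-quartile scaling 3 of the 5 were higher and 1 lower, against 35.4% higher and 47.7% lower among all tested genes. Scaling without the 20 most abundant induced genes dropped those genes from the test as well, Eef1a1 among them. Of the remaining elongation factors 2 were then higher and 1 lower, against 34.1% higher and 49.9% lower among all genes. All 5 were lower with library size alone, and so were all 12 mitochondrial partners, as were 76.7% of all tested genes.

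**Figure D4:**
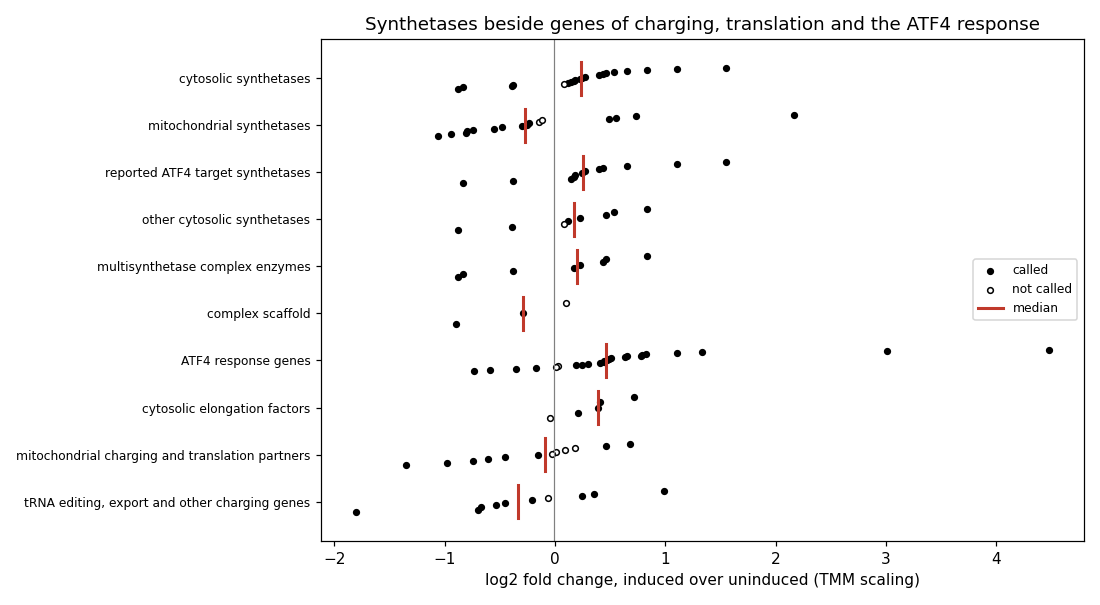
Log2 fold change, induced over uninduced, of each gene (points, open where not called) in the synthetase sets and in lists of genes of charging, translation and the ATF4 response, TMM-scaled, 3 libraries per group. The short bars mark list medians, at 0.24 for cytosolic and -0.28 for mitochondrial synthetases, and the vertical line the median of all tested genes. By library size alone 18 of the 20 cytosolic genes were lower, as were 76.7% of all tested genes.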

How the data were processed

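Polyadenylated RNA was sequenced from 6 cultures, 3 induced and 3 uninduced, grouped by the sample titles. The submitters' processing notes name CASAVA, TopHat2 2.0.12, Bowtie2 2.2.3 and the mm10 build. The authors' table, as deposited, holds raw counts per Entrez gene. The sources used here do not give the counter, its strand setting, its multi-mapping rule or its annotation. Rows without a symbol numbered 13.

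Counts were analysed in R 4.3.3 with edgeR 4.0.16 (filterByExpr defaults, TMM, glmQLFit with robust=TRUE, glmQLFTest, group as the only term), with Benjamini-Hochberg adjustment over 12969 tested genes, checked on simulated data. TMM factors averaged 0.716 in induced and 1.40 in uninduced libraries. CPM used TMM-scaled library sizes, and SE is the log2 fold change over the square root of F. Pair ratios used counts plus 0.5. Lengths and 50-base words came from GENCODE M21 (GRCm38, the assembly of mm10), and positions and promoters from RefSeq.

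The members and gene lists were chosen with earlier results of these data known. Per-library values are given for the 5 largest rises and falls of each compartment, uncalled members and 5 pairs, and also for Farsa, which like Atf4, Qrsl1 and Xpot was chosen after its values were seen; of each companion list up to 3 rising and 3 falling genes are named. The description gives separate cultures, and replicates differed beyond counting noise (chi-square over degrees of freedom 2.40 to 6.77). Alternatives were DESeq2 1.42.0, limma 3.58.1 with voom, scaling by RLE, by upper quartile or by library size, no low-count filter, a replicate block, an adjusted p of 0.01 and each library left out. Scaling without the 20 most abundant induced genes and sums without Lars2 were added after seeing the data. Of the companion genes the naming rule picks, 1 is not reported here.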

Additional observations from a re-analysis of the deposited data

How the results depend on the processing

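Scaling was the choice that mattered. With library size as the only scaling, 1977 of all tested genes were higher and 9949 lower, the cytosolic count was 2 higher and 18 lower, the mitochondrial count had 1 higher, the cytosolic median was -0.73 and the mitochondrial one -1.24. The log2 fold changes that changed sign there were Farsa -0.84, Gars -0.69, Hars -0.43, Iars -0.79, Kars -0.13, Mars -0.53, Nars -0.78, Qars -0.73, Rars -0.50, Sars -0.57, Tars -0.31, Vars -0.88, Wars -0.82, Yars -0.72, Aars2 -0.47, Ears2 -0.23 and Mars2 -0.41. With upper-quartile scaling the medians were 0.092 for cytosolic and -0.42 for mitochondrial members, and Farsa -0.025 and Vars -0.062 changed sign. With library size without the 20 most abundant induced genes, 8 cytosolic members were higher, against 34.1% of all genes. The medians were 0.037 and -0.48 there, and Farsa -0.081, Iars -0.024, Nars -0.018, Vars -0.12 and Wars -0.056 changed sign. The cytosolic median was 0.26 with RLE scaling and 0.17 without the low-count filter. Each of these shifts follows from scaling every gene of a library alike, and the difference of the medians was 0.51 under all of them.

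The replicate numbers did not pair the samples (correlations of deviations 0.0938, 0.000521 and 0.0777). With the replicate block the cytosolic count was 15 higher and 4 lower, the mitochondrial count 4 higher and 10 lower, and the call of all 36 members was unchanged. Leaving out each library in turn gave 13 to 16 cytosolic members higher, with a median of 0.22 to 0.25, and 9 to 10 mitochondrial members lower, with a median of -0.34 to -0.24. The limma-voom fit and RLE scaling also kept all 36 calls, and the DESeq2 Wald test kept 33. Counting depth limits the lowest members most, with SEs of 0.11 to 0.13 on the log2 scale for Fars2, Wars2, Pars2 and Cars2, and differences of that size were not detectable there.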

Other observations

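Genes of tRNA quality control, export and special charging outside the 36 members went both ways, with 6 of 10 lower, 3 higher and 1 not called, against 41.2% lower and 41.3% higher among all tested genes. Dtd1, which removes D-amino acids from tRNA, had 1.48 ± 0.350 CPM in induced and 5.15 ± 0.799 CPM in uninduced cells (SD, n = 3 each), a log2 fold change of -1.80 ± 0.19 (SE). Pstk, a kinase of the selenocysteine pathway, fell by 0.67 on the log2 scale. Xpot, which exports tRNA from the nucleus and is a reported ATF4 target, fell by 0.45. Prorsd1, related to prolyl-tRNA editing domains, rose by 0.99 ± 0.09 (SE), Tarsl2, a second threonyl enzyme, by 0.35 and Dtd2 by 0.24. By library size alone, 9 of the 10 were lower, as were 76.7% of all tested genes.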
